A study of Mus musculus with 18 samples.

Results

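Transcripts of 10 genes that mark T lymphocytes and their precursors in the thymus were followed in the bulk RNA-seq of single mouse aortae. They are *Rag1*, *Rag2*, *Dntt* and *Ptcra*, which act while the antigen receptor is being built, and *Lck*, *Cd3e*, *Cd3d*, *Cd3g*, *Cd4* and *Cd8a*, which serve the receptor at the cell surface. The members were taken by symbol from the 55453 genes of the count tables, and all 10 were listed in both experiments. The members were selected on earlier results of the PE2 genotype comparison, in which *Rag1* had stood out, so the members' genotype differences in that experiment, and any calls made there, are given as a description and nothing is read from them.

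A developing T cell in the thymus cuts and rejoins the segments of its receptor genes, a process called V(D)J recombination. RAG1 and RAG2 together form the recombinase that cuts the DNA. Terminal deoxynucleotidyl transferase, the product of *Dntt*, adds bases without a template at the joints, and the pre-T alpha chain encoded by *Ptcra* holds a newly made beta chain at the surface until an alpha chain replaces it. Precursors of B cells in the bone marrow use the same recombinase and the same polymerase. The CD3 epsilon, delta and gamma chains pass the signal of the receptor into the cell, CD4 and CD8 alpha are co-receptors that contact the molecules presenting antigen, and the kinase LCK rides on the co-receptors and starts the signal. Mature T cells keep the CD3 genes, *Lck* and, as a rule, either *Cd4* or *Cd8a*, and the recombinase and *Dntt* are normally off in them. The aortic wall is built mainly of smooth muscle cells and holds few lymphocytes.

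Both experiments edited the CArG box of the *Tspan2* promoter, a site bound by serum response factor. In the HDR experiment cutting by Cas9 with an sgRNA, followed by repair from a donor oligonucleotide, had replaced adjacent bases of the box, and aortae of *Tspan2* sg/sg mice (5 libraries) were set against wild type (5 libraries). The labels give these mice as C57BL/6 at 12 weeks, with 3 females and 2 males of each genotype. In the PE2 experiment prime editor 2, which nicks the DNA and writes the edit by reverse transcription of its guide, had changed a single base of the same box, and *Tspan2* peg/peg aortae (4 libraries) were set against wild type (4 libraries). The labels give these mice as FVB/N/B6(Cg)-Tyrc-2J/J at 8 weeks; all 4 peg/peg mice and 3 of the wild types were female, and wild-type library 4 was male. By the authors' account both edits were made in zygotes of the same strains. Each founder line had been bred to C57BL/6J, and homozygotes came from crosses between heterozygotes. Age and the labelled strain differ between the experiments, and no value was compared across them. Libraries are numbered 1 to 4 in the PE2 table and 2 to 6 in the HDR table, whose columns could not be tied to single mice or to a sex.

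Each HDR library held between 17290992 and 24880385 counts, and each PE2 library between 38820265 and 44895615. Levels are given as CPM, the read count scaled to a common library size with the TMM method. A count of 0 allowed up to 3 counts, or 0.127 to 0.169 CPM in HDR and 0.0658 to 0.0781 CPM in PE2 libraries, and these limits cover counting error only. *Tspan2* itself averaged 11.9% of wild type in sg/sg and 9.15% in peg/peg aortae, and every mutant library was below every wild-type library. The smooth muscle list, headed by *Acta2* and *Myh11*, summed to at least 15794 CPM in all 18 libraries, as the tissue label would have it. Some libraries stood apart in tissues other than the vessel wall. In peg/peg library 3 the skeletal muscle list, headed by *Acta1* and *Ckm*, summed to 1132 CPM against at most 19.9 in the other PE2 libraries, and its brown fat list, headed by *Ucp1* and *Cidea*, was the lowest of that experiment at 13.3 CPM.

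All members were sparse. Their summed level ran from 1.80 to 16.3 CPM in HDR and from 2.73 to 17.6 CPM in PE2 libraries, or 38 to 386 and 105 to 690 reads. The edgeR filter on low counts kept 5 of 10 members in HDR (*Rag1*, *Lck*, *Cd3g*, *Cd4* and *Cd8a*) and 7 of 10 in PE2 (these and *Cd3e* and *Cd3d*). *Rag2*, *Dntt* and *Ptcra* fell below it in both. In aortae of bulk RNA, fewer cells of a type and less RNA per cell cannot be told apart.

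**Figure D1:**
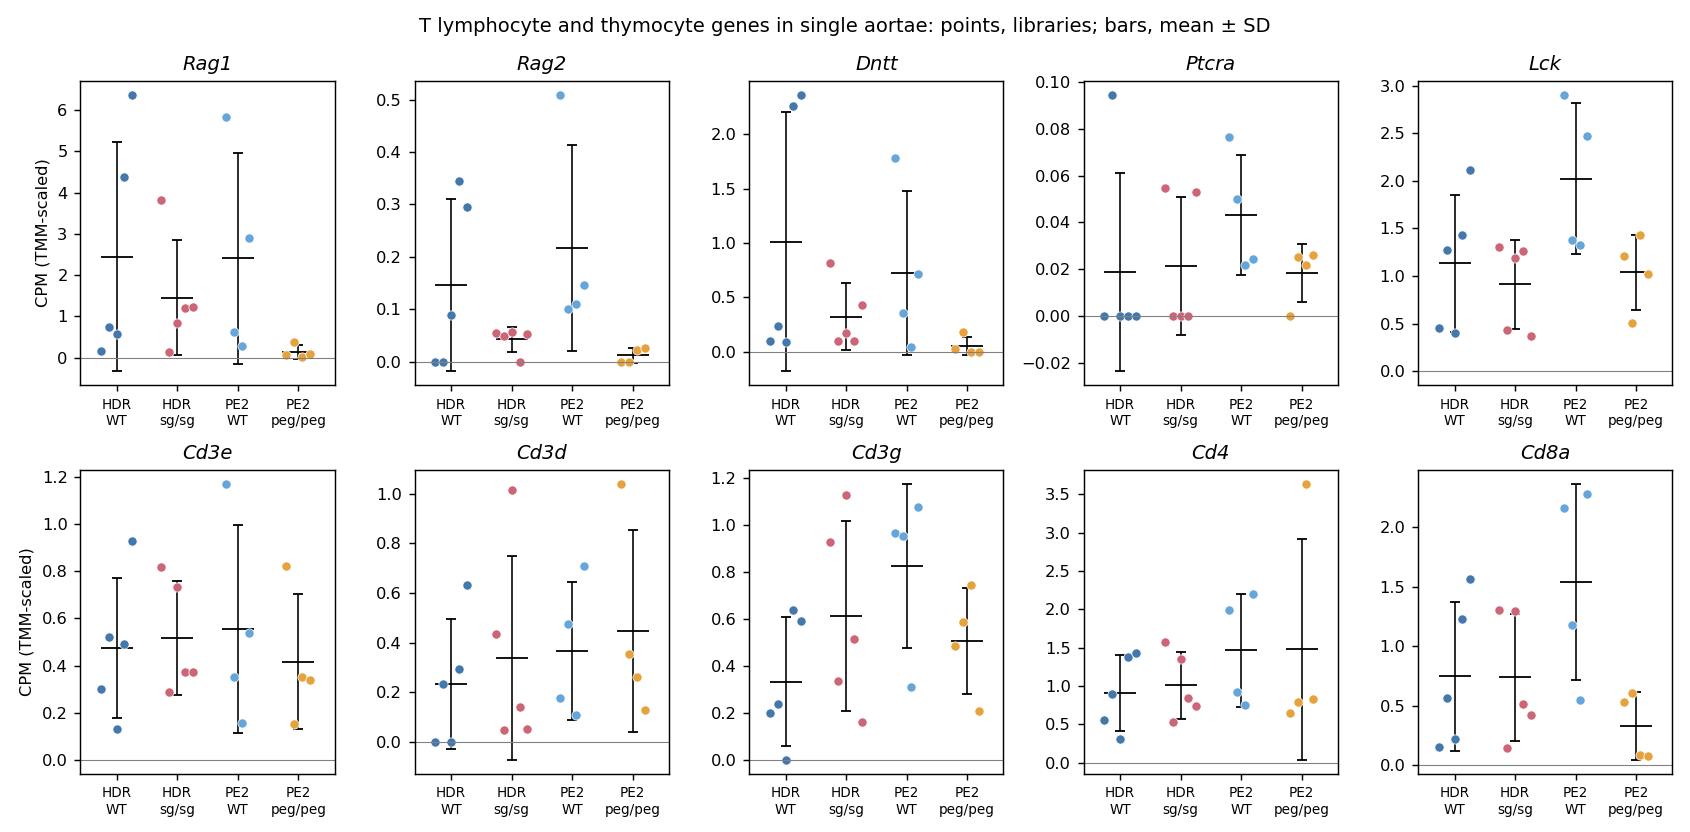
Level of each member in CPM (vertical axis, linear, its own scale in each panel) in the HDR wild-type and sg/sg groups (5 libraries each) and the PE2 wild-type and peg/peg groups (4 libraries each); points are libraries, left to right in the order of their numbers, and bars show the mean ± SD. *Rag1* and *Dntt* were high in HDR wild-type libraries 5 and 6, sg/sg library 2 and PE2 wild-type libraries 1 and 4, and low in all 4 peg/peg libraries.

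*Rag1* was the member with the widest range. It lies on the minus strand of chromosome 2 (chr2:101638282-101649501, GRCm38) in a convergent pair with *Rag2* (chr2:101624718-101632529, plus strand), with 5752 bases between their ends. In HDR wild-type libraries 2 to 6 *Rag1* stood at 0.150, 0.755, 0.572, 4.38 and 6.37 CPM (3, 16, 13, 89 and 151 reads). In sg/sg libraries 2 to 6 it stood at 3.81, 0.144, 0.847, 1.21 and 1.222 CPM (70, 3, 15, 26 and 23 reads). Wild-type libraries 5 and 6 and sg/sg library 2 were thus several times above all others, and the genotypes overlapped. The means were 2.45 ± 2.77 (SD, n = 5) in wild type and 1.45 ± 1.39 (SD, n = 5) in sg/sg, a log2 fold change of -0.76 (SE 0.90), with p = 0.571 in an exact permutation test (two-sided). Without wild-type library 6 the log2 fold change was -0.021, and without sg/sg library 2 it was -1.52.

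In PE2 wild-type libraries 1 to 4 *Rag1* stood at 5.83, 0.626, 0.287 and 2.89 CPM (229, 25, 13 and 118 reads), and in peg/peg libraries 1 to 4 at 0.0726, 0.381, 0.0219 and 0.0781 CPM (3, 15, 1 and 3 reads). Wild-type library 1 and the male wild-type library 4 carried most of the wild-type signal, library 1 alone 60.5% of the summed CPM. The groups overlapped narrowly, since peg/peg library 2 was above wild-type library 3. The described log2 fold change was -4.10 (SE 1.17), and it ranged from -5.34 without peg/peg library 2 to -3.19 without wild-type library 1. Without the male library it was -4.01. *B230118H07Rik*, a gene on the same strand that spans the locus, shares 80 exonic bases with *Rag1*, or 1.21% of the exonic length of *Rag1*. *B230118H07Rik* lay between 16.8 and 31.5 CPM in HDR and between 30.9 and 59.5 CPM in PE2 libraries, and its part in the counts of *Rag1* was not tested.

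*Dntt*, on chromosome 19 (chr19:41029275-41059525, plus strand), had its highest levels in the libraries that were highest in *Rag1*. It stood at 0.10, 0.236, 0.0880, 2.26 and 2.36 CPM in HDR wild-type libraries 2 to 6 and at 0.817, 0.0963, 0.169, 0.0933 and 0.425 CPM in sg/sg libraries 2 to 6. The highest 3 libraries were the same as for *Rag1* and in the same order, wild-type 6, wild-type 5 and sg/sg 2. Below them the orders parted, since sg/sg libraries 5 and 6 were level in *Rag1* but differed in *Dntt*. The means, 1.01 ± 1.19 against 0.320 ± 0.309 CPM (SD, n = 5 each), were not told apart by the exact permutation test (two-sided p = 0.349). In PE2 wild-type libraries 1 to 4 *Dntt* stood at 1.78, 0.350, 0.0441 and 0.710 CPM, and in peg/peg libraries at 0.0242, 0.178, 0 and 0 CPM. Peg/peg libraries 3 and 4 had 0 reads, and 7 of the 8 peg/peg reads came from library 2, which also led its group in *Rag1*. Across libraries, log2 CPM of *Dntt* and *Rag1* correlated with Pearson r = 0.88 over 10 HDR and 0.98 over 8 PE2 libraries. These points share library depth and tissue content, and in counts this low the values serve as a description. Each r between members takes both genotypes together. In PE2 it therefore includes the genotype difference on which the members were chosen, and nothing is read from it there.

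*Rag2* was counted at 0, 0, 2, 7 and 7 reads in HDR wild-type libraries 2 to 6 and at 1, 1, 1, 0 and 1 reads in sg/sg libraries 2 to 6. Libraries 5 and 6 of the wild type were again the highest, at 0.344 and 0.295 CPM, whereas sg/sg library 2, high in *Rag1*, had 1 read (exact two-sided permutation p = 0.341). In PE2 wild-type libraries it had 20, 4, 5 and 6 reads against 0, 0, 1 and 1 in peg/peg, so that all wild types were above all mutants. Among genes with at least 10 counts, 1.19% of 21873 in PE2 separated in that direction and 1.34% in the other, and *Rag2* was the 1 member that did. In HDR 0 members separated, beside 0.2% of 24461 genes with the mutant lower and 0.335% with it higher. Wild-type library 1 held 20 of the 35 wild-type reads. The r of *Rag2* with *Rag1* on the log2 CPM scale, 0.69 over 10 HDR libraries and 0.84 over 8 PE2 libraries, was below that of *Dntt*. The exons of *Rag2* overlap *B230118H07Rik* on the opposite strand over 208 bases, and whether counting used strand is not stated. *Ptcra* (chr17:46755663-46763712) was at the limit of counting, with 0 to 2 reads in each HDR library and 0 to 3 in each PE2 library, and no difference could be detected at this depth.

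The promoter windows of *Rag1*, of its partner *Rag2*, and of *Dntt* and *Cd8a*, the members nearest to *Rag1* in pattern, are printed from RefSeq (GRCm38.p6), 5′ to 3′ on the strand of the gene, from 250 bases before to 50 after the start. Capitals mark CANNTG, the E box letters that basic helix-loop-helix factors such as the thymocyte E proteins can bind.
Rag1: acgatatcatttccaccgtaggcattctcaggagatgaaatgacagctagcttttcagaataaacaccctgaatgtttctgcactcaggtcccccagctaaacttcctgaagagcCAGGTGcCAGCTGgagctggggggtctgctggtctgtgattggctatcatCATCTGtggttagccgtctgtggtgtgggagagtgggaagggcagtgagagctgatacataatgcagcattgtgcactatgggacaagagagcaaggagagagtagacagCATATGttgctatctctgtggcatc
Rag2: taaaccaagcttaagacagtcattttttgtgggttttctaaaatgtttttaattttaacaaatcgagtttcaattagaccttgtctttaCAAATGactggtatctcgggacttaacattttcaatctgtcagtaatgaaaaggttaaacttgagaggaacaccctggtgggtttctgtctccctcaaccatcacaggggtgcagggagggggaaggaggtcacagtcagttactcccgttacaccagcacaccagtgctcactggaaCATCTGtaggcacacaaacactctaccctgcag
Dntt: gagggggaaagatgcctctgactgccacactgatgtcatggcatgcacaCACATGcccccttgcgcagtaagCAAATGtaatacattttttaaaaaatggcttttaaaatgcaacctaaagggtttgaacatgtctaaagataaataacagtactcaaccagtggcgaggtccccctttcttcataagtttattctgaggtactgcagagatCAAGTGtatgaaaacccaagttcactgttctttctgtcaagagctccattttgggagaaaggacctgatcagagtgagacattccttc
Cd8a: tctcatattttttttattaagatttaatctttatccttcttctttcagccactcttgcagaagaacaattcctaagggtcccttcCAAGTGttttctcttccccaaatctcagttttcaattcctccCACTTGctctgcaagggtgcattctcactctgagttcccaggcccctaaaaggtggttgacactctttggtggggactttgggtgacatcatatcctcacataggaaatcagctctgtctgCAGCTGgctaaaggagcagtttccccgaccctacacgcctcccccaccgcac
They lie at chr2:101649483-101649782 (minus), chr2:101624462-101624761 (plus), chr19:41029025-41029324 (plus) and chr6:71373177-71373476 (plus). Windows were listed for 9 members, 2 of them for *Lck*, and for *Cd4* none was given. All 10 windows held CANNTG, which reads the same on both strands and is found in 72.3% of all 32851 windows. *Rag1* and *Cd3g* held the most, 4 each, and 6.49% of all windows held at least as many. TGTGGT, letters that RUNX factors can bind, was found on either strand in 2 of the 10, with 2 matches in *Rag1* (1 of them overlapping an E box) and 1 in the upstream window of *Lck*, against 16.8% of all windows. AGGAAG was in 5 of 10 (all windows 35.4%), GATA in 6 of 10 (57.9%), and TATAAA in 0 of 10 (13.6%). These are matches of letters only.

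**Figure D2:**
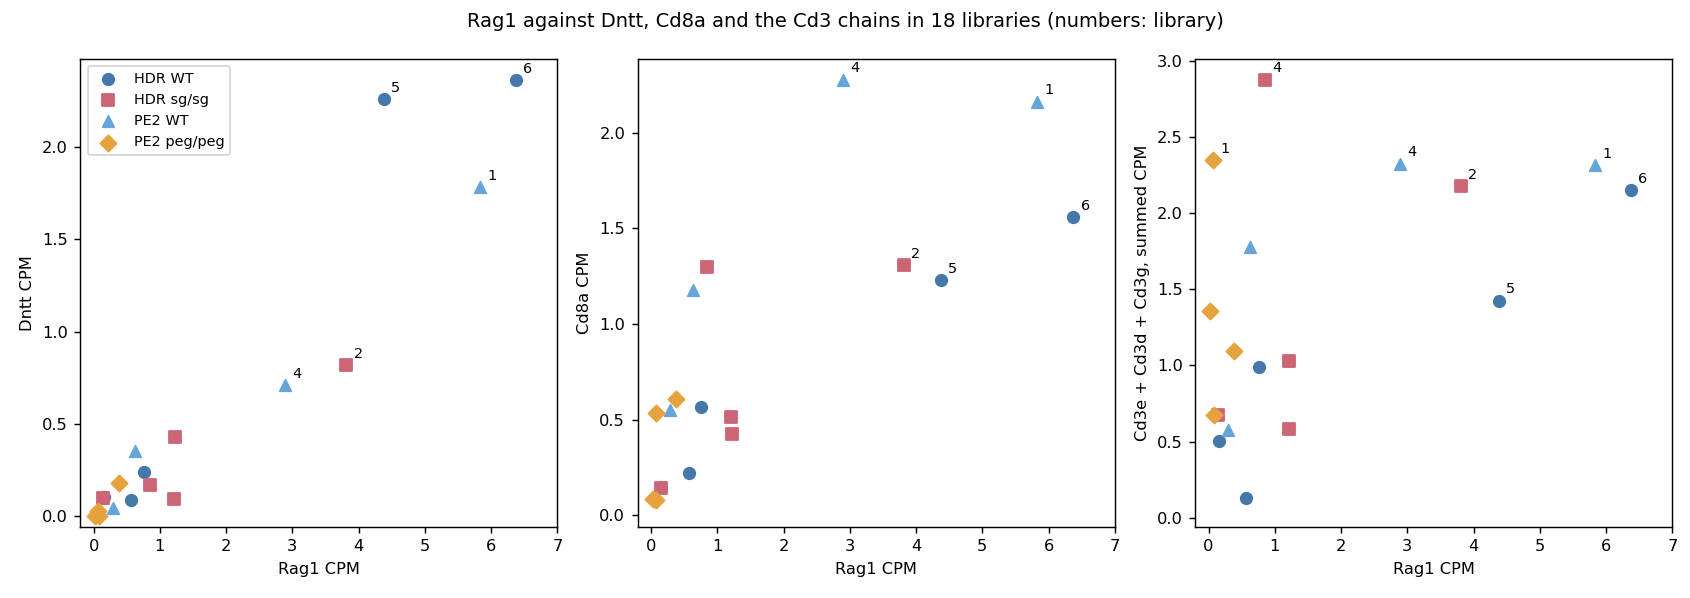
*Rag1* in CPM (horizontal axis) against *Dntt*, *Cd8a* and the summed *Cd3e*, *Cd3d* and *Cd3g* (vertical axes, CPM) in the 18 libraries, with marker shape and colour giving the group and numbers naming single libraries. *Dntt* rose with *Rag1*, whereas sg/sg library 4 and peg/peg library 1 reached the highest *Cd3* sums, 2.88 and 2.35 CPM, at a *Rag1* level of 0.847 and 0.0726 CPM.

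*Cd8a* (chr6:71373427-71379173) was the surface gene nearest to *Rag1* in its pattern, with r = 0.88 over 10 HDR and 0.90 over 8 PE2 libraries on the log2 CPM scale. It stood at 0.150, 0.566, 0.220, 1.23 and 1.56 CPM in HDR wild-type libraries 2 to 6 and at 1.31, 0.144, 1.30, 0.513 and 0.425 CPM in sg/sg libraries 2 to 6. High and low libraries occurred in both genotypes, and the log2 fold change was -0.039 (SE 0.67) with an exact permutation p of 0.984. In the PE2 experiment it stood at 2.16, 1.18, 0.551 and 2.28 CPM in wild type and at 0.533, 0.610, 0.0878 and 0.0781 CPM in peg/peg. The overlap was narrow, with wild-type library 3 between peg/peg libraries 1 and 2, and peg/peg libraries 3 and 4 held 4 and 3 reads. The described log2 fold change was -2.23 (SE 0.78), with a range of -2.72 to -1.92 when single libraries were left out. *Cd8b1*, which encodes the beta chain that pairs with CD8 alpha and is no member, stood at 1.55, 0.726, 0.287 and 1.76 CPM in PE2 wild type and 0.581, 0.0508, 0.0219 and 0.156 CPM in peg/peg.

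*Cd4* (chr6:124864692-124888221) did not share that pattern in the PE2 experiment. It stood at 1.99, 0.926, 0.750 and 2.205 CPM in wild type and at 0.654, 0.788, 3.64 and 0.833 CPM in peg/peg, where library 3 was the highest of all 8 and the other 3 were within the range of wild-type libraries 2 and 3 or just below. The log2 fold change of 0.016 (SE 0.66) became -0.96 without peg/peg library 3. In that library *Cd8a* was at 0.0878 CPM. *Cd8a* made up 44.9, 43.6, 2.35 and 8.57% of the reads of both co-receptors in peg/peg libraries 1 to 4, against 42.4 to 56.0% in wild type, so library 4, where *Cd4* was not high, had a low share too. The macrophage list, headed by *Lyz2* and *Mrc1*, was also highest in peg/peg library 3, at 871 CPM against 154 to 543 in the other PE2 libraries, and some mouse macrophages transcribe *Cd4*. The same library had the high skeletal muscle and low brown fat sums given above (1132 and 13.3 CPM). The part of these lists in the result was not tested. In HDR aortae *Cd4* ran from 0.308 to 1.43 CPM in wild type (median 0.896) and from 0.530 to 1.58 CPM in sg/sg (median 0.840), with a log2 fold change of 0.13 (SE 0.44) and an exact permutation p of 0.738. The highest 3 HDR libraries were those of *Rag1*.

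*Lck* (chr4:129548344-129573641), the kinase of the co-receptors, had, per kilobase of exon, the highest mean level among the surface and signalling members in every group but peg/peg. HDR wild-type libraries 2 to 6 stood at 0.451, 1.27, 0.396, 1.43 and 2.11 CPM and sg/sg libraries 2 to 6 at 1.31, 0.433, 1.19, 1.26 and 0.372 CPM. In each genotype some libraries lay near 0.4 and others above 1.1 CPM, and the log2 fold change was -0.32 (SE 0.51) (exact permutation p = 0.444). PE2 wild-type libraries stood at 2.90, 1.38, 1.32 and 2.47 CPM and peg/peg libraries at 1.21, 0.508, 1.43 and 1.02 CPM, a described log2 fold change of -0.95 (SE 0.41). Libraries 1 and 4 of the wild type were above all peg/peg libraries, and libraries 2 and 3 were within the range of the mutants.

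The genes of the CD3 chains sit side by side on chromosome 9, within 40.1 kb. *Cd3g* (chr9:44969572-44980431, minus) and *Cd3d* (chr9:44981786-44987339, plus) start 1354 bases apart and are read in opposite directions, and *Cd3e* (chr9:44998740-45009627, minus) follows. Their highest libraries were those of *Rag1* only in part. Each shared 2 of its highest 3 HDR libraries with *Rag1*, and of the highest 2 PE2 libraries *Cd3g* shared both and *Cd3e* and *Cd3d* 1 each. *Cd3g* stood at 0.201, 0.236, 0, 0.639 and 0.591 CPM in HDR wild-type and at 0.926, 0.337, 1.13, 0.513 and 0.159 CPM in sg/sg libraries. Sg/sg library 4 was the highest, and the log2 fold change of 0.85 (SE 0.69) was within the spread (exact permutation p = 0.246). *Cd3d* had the same top library, with 1.02 CPM in sg/sg library 4 against a median of 0.140 in its group and 0.236 in wild type, where libraries 2 and 4 had 0 reads (exact permutation p = 0.667). *Cd3e* ran from 0.132 to 0.928 CPM in wild type and from 0.289 to 0.817 CPM in sg/sg (exact permutation p = 0.817).

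In PE2 aortae *Cd3e* stood at 1.17, 0.350, 0.154 and 0.539 CPM in wild type and 0.823, 0.153, 0.351 and 0.339 CPM in peg/peg. *Cd3d* stood at 0.178, 0.475, 0.110 and 0.710 CPM in wild type and 1.04, 0.356, 0.263 and 0.130 CPM in peg/peg. *Cd3g* stood at 0.967, 0.951, 0.309 and 1.08 CPM in wild type and 0.484, 0.585, 0.746 and 0.208 CPM in peg/peg. Peg/peg library 1 had the most *Cd3d* of all 8 libraries and the second most *Cd3e*, and the groups of all 3 genes overlapped. The described log2 fold changes were -0.40 (SE 0.70) for *Cd3e*, 0.28 (SE 0.77) for *Cd3d* and -0.70 (SE 0.51) for *Cd3g*. Without wild-type library 1 that of *Cd3e* was 0.26, and without peg/peg library 1 that of *Cd3d* was -0.56. An antisense gene, *Gm48719*, shares 135 exonic bases with *Cd3e*.

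Set against the CD3 chains, *Rag1* differed between some libraries of similar *Cd3* level. For each read of the summed *Cd3* genes there were 3.07 and 2.96 reads of *Rag1* in HDR wild-type libraries 5 and 6 and 1.75 in sg/sg library 2. Sg/sg library 4, with as many *Cd3* reads as wild-type library 6 (51 each), had 0.294. Wild-type library 4 gave the highest value, 4.33, from 3 *Cd3* reads. The PE2 ratios are a description only, since *Rag1* had stood out in the contrast on which the members were chosen. In PE2 wild-type libraries 1 to 4 the ratio was 2.52, 0.352, 0.50 and 1.24, and in peg/peg libraries 1 to 4 it was 0.0309, 0.349, 0.0161 and 0.115. Peg/peg library 1 had 97 *Cd3* reads, close to the 91 and 95 of wild-type libraries 1 and 4, with 3 reads of *Rag1* against 229 and 118. The sums differed in make-up, with 34, 43 and 20 reads of *Cd3e*, *Cd3d* and *Cd3g* in peg/peg library 1. Wild-type library 1 had 46, 7 and 38, and wild-type library 4 had 22, 29 and 44. *Lck* had 50 reads in peg/peg library 1 against 114 and 101, so a similar *Cd3* sum does not mean similar levels of the other surface genes. The recombination genes made up 1.00 to 16.3% of all member reads in peg/peg, 12.7 to 46.7% in PE2 wild type, 13.2 to 56.1% in HDR wild type and 13.8 to 45.2% in sg/sg, so those of peg/peg and PE2 wild type overlapped through peg/peg library 2.

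Over all genes tested, edgeR (quasi-likelihood test, adjusted p under 0.05 by Benjamini-Hochberg) called 1 of 16423 HDR genes (0.00609%), which was *Tspan2*. It called 0 of the 5 members tested there (adjusted p = 1 for each). None of them was under an unadjusted p of 0.05, beside 1.98% of all genes tested, and DESeq2 also called 0 members in HDR (0.00933% of all genes). The standard errors of these members on the log2 scale were 0.437 to 0.897, against a median of 0.193 over all genes tested. Of the 5, 3 were lower and 2 higher in sg/sg, where 49% of all genes were lower. In the PE2 experiment edgeR called 1 of 16401 genes (0.0061%), again *Tspan2*, and 0 of the 7 members tested. As a description, 5 of the 7 were lower in peg/peg (47.8% of all genes). DESeq2 called 33 of 17481 genes (0.189%), with *Rag1* as the single member among them, in the contrast on which the members were chosen.

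**Figure D3:**
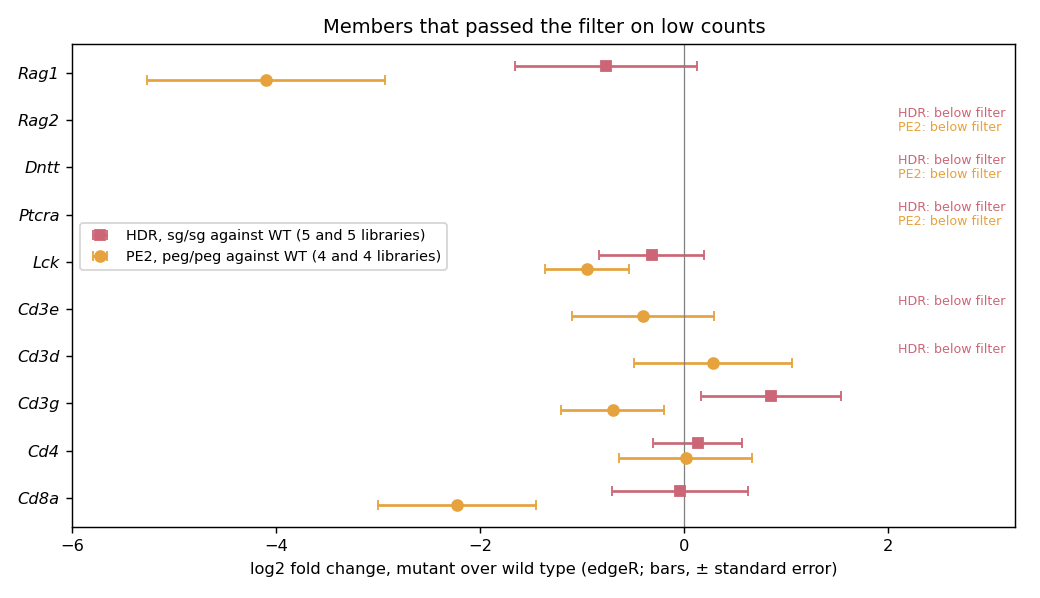
Log2 fold change of mutant over wild type with its standard error (horizontal axis, edgeR) for the members that passed the filter, in the HDR experiment (squares, 5 and 5 libraries) and the PE2 experiment (circles, 4 and 4 libraries). *Rag1* at -4.10 and *Cd8a* at -2.23 in PE2 are farthest from 0, and each HDR value lies within 2 standard errors of it.

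Per kilobase of exon, which allows genes to be ranked by level, *Dntt* and *Lck* led in HDR wild type, at 0.441 ± 0.520 and 0.386 ± 0.245 CPM per kb (mean ± SD, n = 5), followed by *Rag1* at 0.370 ± 0.420. In PE2 wild type *Lck* led at 0.689 ± 0.271 CPM per kb (n = 4), followed by *Cd8a* at 0.424 ± 0.227 and *Rag1* at 0.364 ± 0.387. In sg/sg the order began with *Lck*, *Cd4* and *Rag1*, and *Dntt* was the seventh. In peg/peg *Cd4* at 0.367 ± 0.358 and *Lck* at 0.355 ± 0.134 led, and *Dntt* at 0.0220 ± 0.0374 and *Rag1* at 0.0210 ± 0.0248 were the seventh and the eighth. *Rag2* and *Ptcra* filled the last 2 places in all 4 groups. Neighbours in these orders differed by less than the larger of their SDs, except *Cd3e* against *Ptcra* in sg/sg and *Ptcra* against *Rag2* in peg/peg, and the latter pair was at the limit of counting.

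Other genes of the T cell receptor pathway were read from a list of 17 (*Trac*, *Trbc1*, *Trbc2*, *Cd247*, *Cd8b1*, *Zap70*, *Lat* and others), written with earlier results known, as were all lists here. In HDR aortae 9 of 17 were tested, 4 lower and 5 higher in sg/sg (median log2 fold change 0.21, all genes 0.0031), with 0 called by edgeR or DESeq2 and 0 at an unadjusted p under 0.05. In PE2 aortae 14 were tested, 9 lower and 5 higher in peg/peg (median -0.58, all genes 0.013), with 0 called by either tool and 3 at an unadjusted p under 0.05 (4.3% of all genes). These were *Cd8b1* at -2.40 (SE 0.96), *Trbc1* at -1.23 (SE 0.47) and *Trac* at -1.08 (SE 0.47) on the log2 scale. They are the co-receptor partner of *Cd8a* and constant segments of the receptor beta and alpha chains. *Trbc2*, the other beta constant segment, was at -0.39 (SE 0.42), and *Cd28* at 1.165 (SE 0.83) and *Zap70* at 0.30 (SE 0.69) were among the 5 that were higher. The most abundant genes of the list, the adaptors *Fyb* and *Lcp2*, are also made by other leukocytes and gave log2 fold changes of 0.42 and 0.16 in PE2 and -0.12 and -0.46 in HDR.

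Of 14 transcription factors and thymocyte genes, 13 were tested in each experiment. In HDR 4 were lower and 9 higher (median 0.067), and in PE2 4 were lower and 9 higher (median 0.44), with 0 called by edgeR or DESeq2 in either. The list is dominated by *Notch1*, the receptor that commits precursors to the T lineage but is also made in vessels, and by *Satb1*. *Arpp21* and *Themis*, which are abundant in thymocytes, were picked from it after their values were seen, and they do not stand for the list. In HDR the whole list summed to 106, 159 and 174 CPM in wild-type libraries 5 and 6 and sg/sg library 2, with a range of 103 to 224 CPM in sg/sg. In PE2 it summed to 121 and 108 CPM in wild-type libraries 1 and 4 and to 89.3 to 340 CPM in peg/peg. The list sum thus did not follow *Rag1*. *Arpp21* stood at 0.351, 0.802, 0.616, 1.77 and 1.94 CPM in HDR wild-type libraries 2 to 6 and at 2.18, 0.241, 0.621, 1.31 and 0.372 CPM in sg/sg libraries, with the same 3 libraries on top as *Rag1*. *Themis* stood at 0.150, 0.519, 0.352, 2.02 and 1.31 CPM in HDR wild-type and at 2.23, 0.385, 1.41, 0.653 and 0.319 CPM in sg/sg libraries, and sg/sg library 4, low in *Rag1*, was above wild-type library 6. In PE2 *Arpp21* stood at 0.815, 0.250, 0.573 and 0.759 CPM in wild type and 0.412, 0.254, 0.110 and 0.0260 CPM in peg/peg, and both *Arpp21* and *Themis* were highest in wild-type libraries 1 and 4. The 1 gene of the list at an unadjusted p under 0.05 in PE2 was *Ly6d*, higher by 4.01 on the log2 scale through peg/peg library 3; this gene is also made by epithelia.

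The list of mature T cell genes set another library apart. Its 12 genes, *Il7r*, *Il2rb* and *Ccr7* among them, summed to 25.2 CPM in sg/sg library 4 and to 2.55 to 9.43 CPM in the other HDR libraries. In that library *Il7r*, the receptor for the survival factor interleukin 7, reached 9.54 CPM and the chemokine receptor gene *Ccr7* 2.15 CPM, while *Dntt* was at 0.169 CPM. Of the HDR libraries rich in *Rag1* and *Dntt*, wild-type 5 and 6 and sg/sg 2 had 0.689, 1.86 and 0.872 CPM of *Il7r*. The list summed to 4.33, 8.57 and 6.92 CPM in them, so wild-type library 6 was high in both kinds of gene. All 3 genes tested in HDR were higher in sg/sg (median 1.20) and 3 of 7 in PE2 (median -0.011), with 0 called and 0 at an unadjusted p under 0.05 in either; DESeq2 called 0 as well.

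The end joining genes that close the cuts made by the recombinase, among them *Prkdc* and *Xrcc6*, work in all cells. Their sum varied little between libraries, from 173 to 199 CPM in HDR and from 136 to 156 CPM in PE2 libraries. All 9 were tested, with a median log2 fold change of 0.021 in HDR and -0.069 in PE2, 0 called by edgeR or DESeq2, and 0 at an unadjusted p under 0.05.

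**Figure D4:**
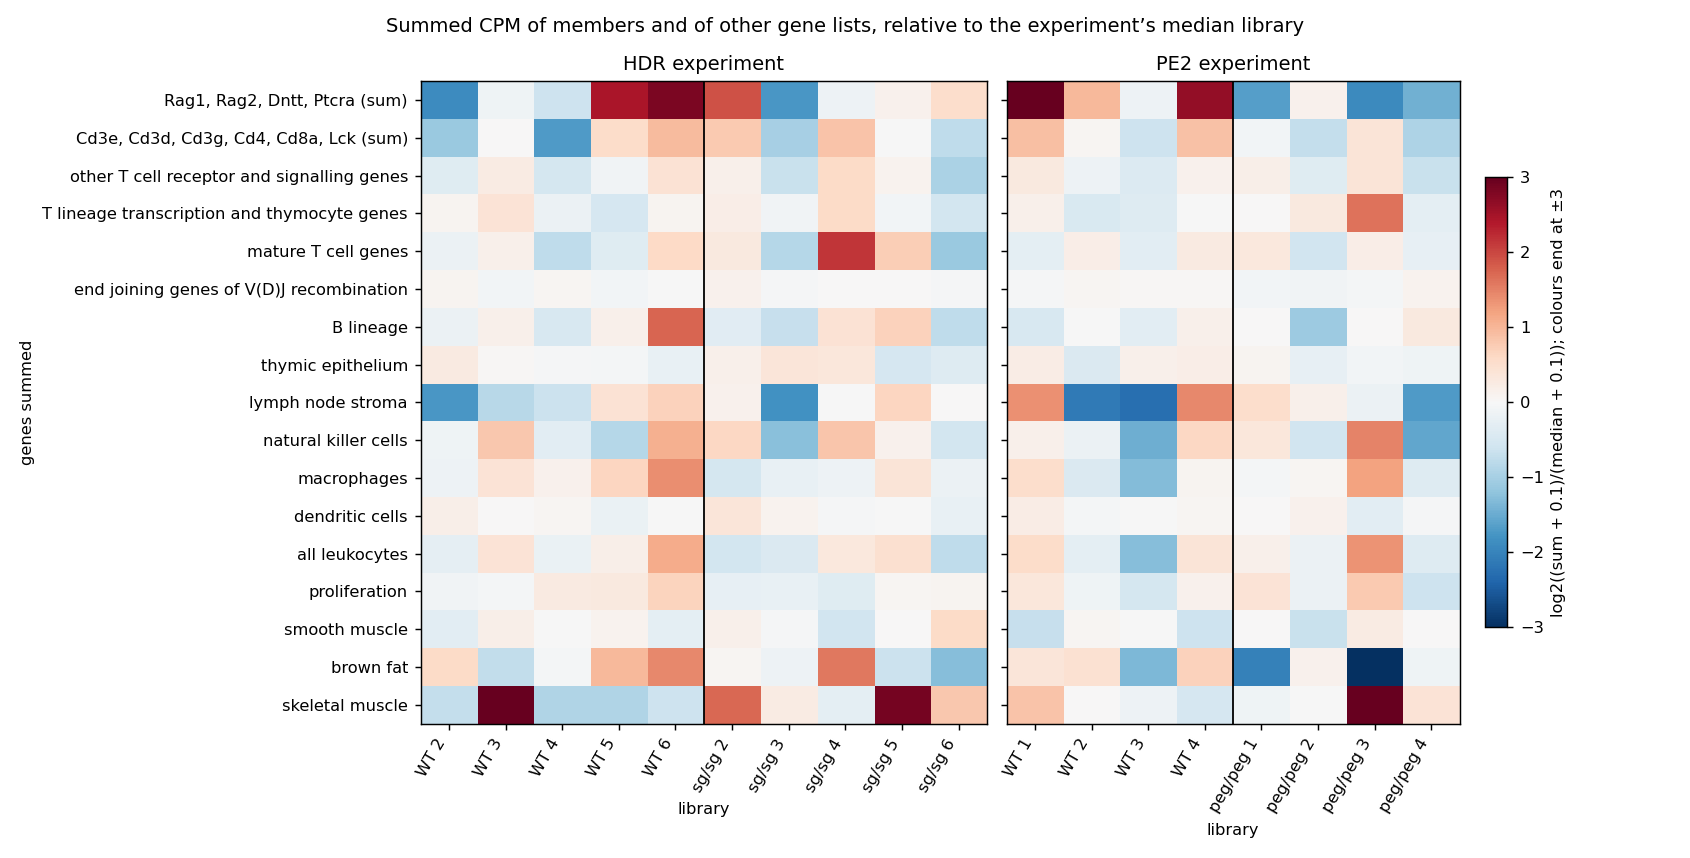
Summed CPM of the members (upper 2 rows) and of each list (other rows) in every library, as the log2 ratio to the median library of the experiment after adding 0.1 CPM; columns are libraries, the black line parts wild type (left) from mutant (right), and colours end at ±3. The recombination genes (top row) are high in HDR wild-type 5 and 6, sg/sg 2 and PE2 wild-type 1 and 4, the mature T cell genes in sg/sg 4, and the end joining genes are even throughout.

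Markers of tissues that could hold such cells were read beside these values. Of the 6 thymic epithelium genes, *Foxn1*, *Psmb11*, *Prss16* and *Aire* gave 17, 22, 6 and 10 reads over all 10 HDR libraries and 1, 1, 12 and 7 over all 8 PE2 libraries. These are few reads over whole experiments, and the part of thymic tissue in the level of *Rag1* was not tested. *Ccl25*, the chemokine that makes up nearly all of the list, averaged 3.17 CPM in PE2 wild type and 2.74 in peg/peg, and 10.4 in HDR wild type and 10.4 in sg/sg; *Tbata* gave 20 and 52 reads. *Ccl25* was the 1 gene of the list tested, with a log2 fold change near 0 in HDR and of -0.21 in PE2. Among the 6 genes of lymph node stroma *Ccl21a* was at 0 in all 18 libraries. *Ccl19*, a chemokine of T cell zones, stood at 3.67, 0, 0 and 4.29 CPM in PE2 wild type and 1.33, 1.58, 0 and 0.0260 CPM in peg/peg, highest in wild-type libraries 1 and 4 as *Rag1* was. In HDR it was highest in wild-type library 6, at 1.52 CPM. There wild-type library 4, low in *Rag1*, had 1.14 CPM and sg/sg library 2, high in *Rag1*, had 0.654 CPM. The log2 fold change in PE2 was -1.44 (SE 1.88) for *Ccl19* and 0.72 (SE 0.69) for *Cxcl13*, the other gene of the list tested there. The list summed to 0.287 to 4.90 CPM in wild type and 0.469 to 2.57 in peg/peg, and to 0.602 to 3.76 in HDR wild type and 0.578 to 3.59 in sg/sg, and its part in the level of *Rag1* was not tested.

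B lineage genes were read because their precursors also use *Rag1* and *Dntt*. *Vpreb1* and *Igll1*, the surrogate light chains of B cell precursors, gave 12 and 4 reads in all HDR libraries together and 81 and 7 in all PE2 libraries. The 14 genes, headed by *Ighm* and *Igkc*, summed to 21.2 to 99.6 CPM in HDR wild type and 17.6 to 48.4 in sg/sg, and to 44.4 to 69.1 in PE2 wild type and 29.1 to 75.9 in peg/peg. Their highest HDR library was wild-type 6, the highest in *Rag1*, and their lowest PE2 wild-type library was library 1, also the highest in *Rag1*. In HDR wild-type library 6 *Ighm* alone gave 81.3 CPM, against 9.19 to 18.2 CPM in the other HDR libraries. Of 9 tested in HDR 3 were lower and 6 higher, and of 12 in PE2 7 were lower and 5 higher, with 0 called by edgeR or DESeq2 and 0 at an unadjusted p under 0.05.

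The brown fat list, whose cells surround the aorta, moved in part with the members. It summed to 666, 268, 426, 875 and 1199 CPM in HDR wild-type libraries 2 to 6 and to 463, 399, 1339.8, 282 and 182 CPM in sg/sg libraries 2 to 6. It summed to 1882, 1989, 569 and 2349.8 CPM in PE2 wild-type and to 358, 1577, 13.3 and 1326 CPM in peg/peg libraries 1 to 4. The libraries rich in *Rag1* were at or above the middle of their experiment, but sg/sg library 4 and PE2 wild-type library 2, with much of the fat signal, had 0.847 and 0.626 CPM of *Rag1*. All 6 brown fat genes were lower in peg/peg (median -0.87) and 5 of 6 lower in sg/sg (median -0.51), with 0 called by either tool and 0 at an unadjusted p under 0.05. What part the surrounding fat had in the members' levels was not tested.

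Lists of other cells were read in the same way. The macrophage list was highest in wild-type library 6 in HDR, at 691 CPM, and in peg/peg library 3 in PE2, at 871 CPM. The other peg/peg libraries, at 290 to 393 CPM, were within the wild-type range of 154 to 543 CPM for this list. Its genes were all lower in sg/sg (9 of 9, median -0.73, 7 at an unadjusted p under 0.05) and all higher in peg/peg (9 of 9, median 0.58, 0 at that level), where *Rag1* was lower. The genes of all leukocytes, headed by *Ptprc* and *Laptm5*, were 6 of 6 lower in sg/sg (median -0.52) and 6 of 6 higher in peg/peg (median 0.43). Their sums were 67.5, 37.7, 19.2 and 61.0 CPM in PE2 wild-type libraries 1 to 4. In peg/peg libraries 1 to 4 they were 51.6, 41.2, 118 and 35.3 CPM, so only library 3 was above the wild-type range. Dendritic cell genes, headed by *Zbtb46* and *Siglech*, gave 1 lower and 2 higher in HDR (median 0.079) and 1 lower and 3 higher in PE2 (median 0.20). Natural killer cell genes, headed by *Gzma* and *Nkg7*, summed to at most 4.56 CPM in any library, and 0 were tested in HDR and 2 in PE2, both lower. Proliferation genes, headed by *Pcna* and *Mki67*, were 9 of 9 lower in sg/sg (median -0.61, 4 at an unadjusted p under 0.05) and gave 2 lower and 8 higher in PE2 (median 0.27). Smooth muscle genes gave 1 lower and 5 higher in HDR (median 0.11) and 3 lower and 3 higher in PE2 (median 0.18). Where no count at an unadjusted p under 0.05 is given in this paragraph it was 0. Of all these genes edgeR called 0, and DESeq2 called 2, the skeletal muscle genes *Myh4* (4.29 on the log2 scale) and *Atp2a1* (2.80) in HDR, where that list had a median of 0.64 with 3 at an unadjusted p under 0.05, beside 2.67 with 2 in PE2.

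Genes that varied most like the members were looked for among the 14761 tested in both experiments, by the correlation of log2 CPM with the mean of the 5 members tested in both, over the 10 HDR and the 8 PE2 libraries apart. Ranked by the lower of both r, the first 10 outside the members, with lower values from 0.83 to 0.74, included *Ints11*, *Rasgrp1*, *Lat*, *Gars*, *Arpp21*, *Trbc2*, *Uros*, *Myb* and *Rflnb*. *Lat*, *Trbc2* and *Arpp21* are on the lists of T cell genes above, *Rasgrp1* activates RAS behind the T cell receptor, and *Myb* is a transcription factor of blood precursors. *Myb* stood at 1.83, 0.475, 0.397 and 0.759 CPM in PE2 wild type and 0.363, 1.09, 0.219 and 0.286 CPM in peg/peg. *Ints11*, a subunit of the Integrator complex that is made in all cells, led the ranking but moved little, from 11.6 to 16.3 CPM in HDR and from 17.5 to 22.6 CPM in PE2 libraries. The members' own r with this mean, of which each is a part, were lowest for *Cd4* in PE2, at 0.46.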

How the data were processed

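By the authors' account, mRNA was purified with oligo-dT beads from total RNA of single aortae and sequenced. The authors trimmed reads with fastp, aligned them with STAR 2.7.0f to GRCm38 (Gencode M22) and counted genes with featureCounts (Subread 1.6.4). They deposited a raw count per gene and library, and normalized values, a signal scale made by dividing each count by 1 DESeq2 1.22.1 size factor per library, which served only as a check. The strand setting is not given in the sources used here. All per-sample columns were used (0 left out). Genotypes came from the labels and column names.

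The members and lists were chosen with earlier results of these data known. On each deposited count table edgeR 4.0.16 (R 4.3.3) was run with TMM, filterByExpr and the quasi-likelihood test on genotype alone, calling Benjamini-Hochberg adjusted p under 0.05, after the script had been tested on simulated data. Where a p is exact, it is the two-sided permutation test of the mean CPM (scipy 1.17.1), whose smallest value is 0.00794 for 5 against 5 libraries. DESeq2 1.42.0 (Wald test), other size factors, other filters, a replicate block and leaving out each library were alternatives. Libraries of a group are separate aortae, and no duplicates were found (lowest chi-square per degree of freedom 15.6).

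Exonic lengths and positions came from Gencode M21 on GRCm38, and promoters from RefSeq. Genes were named by a rule: the members, *Tspan2*, the 2 most abundant genes and every called gene of each list, any gene of the T cell, B lineage, thymic epithelium and lymph node lists whose values bear on a member, and the 10 genes most like the members. Some genes that meet this rule are not reported here. *B230118H07Rik* and *Gm48719* were named for their overlap after their values were seen.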

Additional observations from a re-analysis of the deposited data

Results flagged for a closer look

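Single libraries far from the rest of their group, by Dixon's ratio at 95%, were found in 8 of 40 tests of a member in a group. Chance alone flags about 1 in 20 where values are independent and normally distributed. The tests here share libraries and some rest on very few reads, so that rate does not hold for them and no excess is read. Among the higher counts, *Cd4* in peg/peg library 3 reached 3.64 CPM against 0.654 to 0.833 in the other 3 libraries, and *Cd3g* in PE2 wild-type library 3 was at 0.309 CPM against 0.951 to 1.08. *Rag2* in PE2 wild-type library 1 stood at 0.509 CPM against 0.10 to 0.147, in the library that also led in *Rag1* and *Dntt*.

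Peg/peg library 2 stood above its group in both *Rag1*, at 0.381 CPM against 0.0219 to 0.0781, and *Dntt*, at 0.178 CPM against 0 to 0.0242, and it held 15 and 7 reads of them. The remaining cases rest on 0 to 2 reads and describe counting: *Rag2* at 0 CPM in sg/sg library 5, *Ptcra* at 0.0943 CPM in HDR wild-type library 3, and *Ptcra* at 0 CPM in peg/peg library 1. The skeletal muscle and brown fat sums of peg/peg library 3 are given beside *Cd4* in the report, and their part was not tested.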

How the results depend on the processing

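The HDR count of called genes was 4 with DESeq2 and 4 without a filter, and 1 with each library left out, with DESeq2 size factors and with at least 10 counts in every library; the count of called members was 0 under all of these. The PE2 count was 33 with DESeq2, which called 1 member (*Rag1*, log2 fold change -4.12, adjusted p = 0.0336), and 0 to 2 when single libraries were left out, with 0 members called. Of these 8 fits 7 gave 0 or 2 in place of 1. Without wild-type library 3 the count was 1, but that gene was higher in peg/peg and so was not *Tspan2*. The fits that gave 0 did not call the edited gene *Tspan2* either, so 0 called members in them says little. DESeq2 with each library left out, added after seeing the data, gave *Rag1* values of -5.39 to -3.19, with an adjusted p of 0.00122 to 0.422, and lost the call without wild-type library 1 or 4 or peg/peg library 1 or 4. With the replicate number as a block, 0 PE2 genes and 0 members were called and the log2 fold change of *Cd4* was -0.33; same-numbered libraries deviated with r of 0.0163, -0.232, -0.0567 and -0.29, so the numbers do not pair them.

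When single libraries were left out, directions turned for *Cd4* (-0.090 to 0.36), *Cd8a* (-0.35 to 0.43) and *Lck* (-0.54 to 0.038) in HDR, and for *Cd3e* (-0.97 to 0.26), *Cd3d* (-0.56 to 0.81) and *Cd4* (-0.96 to 0.28) in PE2. *Rag1* kept its direction in HDR (-1.52 to -0.021) and in PE2 (-5.34 to -3.19). The exact permutation p was computed in HDR only. With single HDR libraries left out it ranged over 0.365 to 0.873 for *Rag1*, 0.190 to 0.683 for *Rag2*, 0.206 to 0.698 for *Dntt*, 0.556 to 1.00 for *Ptcra*, 0.222 to 0.825 for *Lck*, 0.302 to 1.00 for *Cd3e*, 0.429 to 0.873 for *Cd3d*, 0.111 to 0.492 for *Cd3g*, 0.476 to 0.984 for *Cd4* and 0.571 to 0.984 for *Cd8a*, and it was 0.944 for *Cd8a* without TMM. With Spearman's coefficient 4 of the 10 most similar genes remained. Depth limits *Rag2*, *Dntt*, *Ptcra* and, in HDR, *Cd3e* and *Cd3d*, which rest on few reads per library. The cause of these changes was not tested.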
